A study of Homo sapiens with 7 samples.

Results

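The 35 genes described here make cholesterol and fatty acids, control that synthesis or move cholesterol within and out of the cell. They were chosen by name, from what each gene is known to do, with earlier results of these data known. They are set among the 12726 genes tested in the same arrays. Of the 35 genes, 31 were tested. ABCG1, which exports cholesterol to high density lipoprotein, stayed below a signal of 100 on all 7 arrays, with a highest signal of 66.7 on an array of control cells, and was not tested. CYP51A1, which removes a methyl group from lanosterol, and FADS1, a desaturase of polyunsaturated fatty acids, lie only on probe sets that name several genes, and FDFT1, the squalene synthase, has no probe set under that name. These 3 genes were not analysed here. The dimmest genes that did pass the minimum of 100 were TM7SF2, with a highest signal of 110, and MVD, with a highest signal of 121.

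The arrays measured total RNA from dermal fibroblasts grown in culture to passage 10, with 1 array labelled prelamin A and treated with FTI, 1 labelled prelamin A and ZMPSTE24, 1 labelled prelamin A, 1 labelled progerin and treated with FTI, 1 labelled progerin, and 2 arrays of control cells, each named gene being overexpressed. Prelamin A is the precursor of the nuclear envelope protein lamin A, progerin is the shortened form of it that is made in progeria, and ZMPSTE24 is the protease that releases mature lamin A. FTI was the farnesyltransferase inhibitor L-744832 at 10 nM for 48 h. The labels name a single primary fibroblast strain for all 7 arrays, and the study's methods deliver the transgenes by lentivirus, so by the labels each condition but control is 1 array of transduced cells of 1 strain. The methods instead describe transduction of 2 strains, each cultured in duplicate, and which of those cultures these arrays hold is not given in the sources used here. The labels do not say whether the control cells carried a vector or a vehicle. The array used as prelamin A and FTI carries a conflict in its labels, since its title mentions only FTI but its source and treatment fields mention both.

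On the brightest probe sets, the signals of the overexpressed genes did not bear out the prelamin A and ZMPSTE24 labels. LMNA, which encodes prelamin A and lamin A, had a signal of 9814 with prelamin A and FTI, 9488 with prelamin A and ZMPSTE24, 8498 with prelamin A, 15240 with progerin and FTI, 16289 with progerin, and 9300 and 14029 in controls. The array labelled prelamin A was below both controls, a difference of -0.43, and the array labelled progerin was above both, at 0.51, neither of them called. The next 3 LMNA probe sets in brightness also read lower on the array labelled prelamin A than in either control. The dimmest LMNA probe sets went the other way, at 387 with prelamin A against 285 and 313 in controls, and 52.4 against 24.6 and 47.1. Progerin was not above both controls on every probe set, with 10011 against 6806 and 10059 on 1 and 229 against 285 and 313 on another. ZMPSTE24 read 5779 on the array labelled prelamin A and ZMPSTE24 against 6120 on the array labelled prelamin A, a difference of -0.08 ± 0.37 (standard error, adjusted p = 1.00), and 4841 and 4973 in controls. Whether these probe sets lie within the transgenes was not tested, and a probe set outside a transgene would not measure it. Below, prelamin A and ZMPSTE24 name arrays by their labels, and every direction drawn from them rests on those labels.

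Cells build cholesterol from acetyl-CoA through mevalonate, and on the way they make farnesyl diphosphate, which is both the precursor of squalene and sterols and the lipid that farnesyltransferase attaches to prelamin A and progerin. When sterols are plentiful, INSIG proteins hold SCAP and the SREBP transcription factors in the endoplasmic reticulum. When sterols are scarce, SCAP escorts SREBP to the Golgi, where it is cut and freed to switch on the genes of sterol and fatty acid synthesis, INSIG1 among them. Liver X receptors respond to oxysterols instead and switch on cholesterol exporters such as ABCA1.

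Promoters of 4 genes that were higher with prelamin A are shown because they cover an early step, the sterol branch, the sterol-sensing brake and cholesterol export. Each is the 250 bases before the RefSeq start of the gene in GRCh38.p14, 5′ to 3′ on the strand of the gene, at chr5:43313413-43313662 (minus strand) for HMGCS1, chr4:165327419-165327668 (plus strand) for MSMO1, chr7:155297628-155297877 (plus strand) for INSIG1 and chr9:104928156-104928405 (minus strand) for ABCA1. Capitals mark the NF-Y box CCAAT and the GC box GGGCGG on either strand, where the other strand reads ATTGG and CCGCCC.
HMGCS1: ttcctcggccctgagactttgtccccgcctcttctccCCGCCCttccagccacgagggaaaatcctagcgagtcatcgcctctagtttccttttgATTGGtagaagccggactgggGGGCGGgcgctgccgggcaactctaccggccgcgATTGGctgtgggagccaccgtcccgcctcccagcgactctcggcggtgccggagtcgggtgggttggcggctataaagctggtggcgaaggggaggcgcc
MSMO1: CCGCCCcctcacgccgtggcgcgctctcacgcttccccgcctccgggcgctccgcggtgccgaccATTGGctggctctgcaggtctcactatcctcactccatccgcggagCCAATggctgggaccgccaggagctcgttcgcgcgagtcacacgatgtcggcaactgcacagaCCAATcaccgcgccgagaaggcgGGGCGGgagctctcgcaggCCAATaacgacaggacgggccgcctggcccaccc
INSIG1: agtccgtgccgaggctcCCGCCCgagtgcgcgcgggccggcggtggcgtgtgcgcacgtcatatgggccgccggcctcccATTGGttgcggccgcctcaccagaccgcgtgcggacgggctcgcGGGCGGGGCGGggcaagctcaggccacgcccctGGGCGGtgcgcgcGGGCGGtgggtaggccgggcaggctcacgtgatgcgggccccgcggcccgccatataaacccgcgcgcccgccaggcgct
ABCA1: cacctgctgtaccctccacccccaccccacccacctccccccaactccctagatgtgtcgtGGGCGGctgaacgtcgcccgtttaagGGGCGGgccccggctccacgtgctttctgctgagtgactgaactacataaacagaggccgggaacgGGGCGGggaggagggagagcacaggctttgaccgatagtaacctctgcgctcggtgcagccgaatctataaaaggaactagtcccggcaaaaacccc
MSMO1 held 4 CCAAT matches and 2 GC boxes, HMGCS1 held 2 of each, INSIG1 held 1 CCAAT match and 5 GC boxes, of which 2 overlap in the run GGGCGGGGCGG, and ABCA1 held no CCAAT match and 3 GC boxes.

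Of the 35 genes, 30 had a window of 250 bases before a listed RefSeq start, and CCAAT was found in 17 of them (56.7%) against 33% of 27305 promoters of all genes. The farthest upstream of the listed starts was used. For PMVK, ACLY, MVK, SCAP, ELOVL6 and CYP51A1 it lay inside the span of the gene. The GC box was found in 26 of 30 (86.7%) against 42.2%. A core of the sterol regulatory element, searched as TCACNCCAC on both strands, was found in the SREBF2 window alone (3.33%) against 0.868%. Among the 8 genes called higher with prelamin A, CCAAT was in 6 windows, the GC box in 7 and the sterol element core in 0, and among the other 20 tested genes with a window the counts were 11, 17 and 1. These matches describe the letters in the windows and say nothing about binding.

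Signals are MAS 5.0 values, a brightness per probe set in linear arbitrary units that the authors scaled to a common level on each array, so a signal can be compared between arrays for the same gene and not between genes. Differences are in log2(signal + 16), a scale that understates the change of dim genes. A gene is called here when its difference exceeds 2-fold and its unadjusted p from limma is under 0.05. The study's results give that fold and p, while its methods give a stricter p of 0.01 from its own S-score test. The only replicates are the 2 controls, the labels do not say whether they were separate cultures, and every lone array was assumed to vary as they do, so that p-values measure the spread between these 2 arrays and may cover technical spread alone. In these bulk samples fewer cells of a type and less RNA per cell cannot be told apart. No gene of the 31 passed an adjusted p of 0.05 in any comparison in the main setting. Over the alternative settings described below, ABCA1 with prelamin A against control came just under it at its lowest.

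The median signal of all probe sets was 64.9 to 77.0 per array. All 10 fibroblast markers were detected, with summed signals of 224254 to 283386, the hepatocyte and keratinocyte lists stayed below 100 on every array, and of the 5 adipocyte markers ADIPOQ, PLIN1 and FABP4 stayed below 50, CIDEC read 102 to 159 and LEP 85.0 to 5266, highest with prelamin A and ZMPSTE24. On the array labelled prelamin A the 3′ to 5′ signal ratio, a measure of RNA integrity and labelling, was the highest of the 7 for β-actin, at 1.62 against 1.06 to 1.50 on the other 6 arrays, and the lowest for GAPDH, at 0.861 against 0.879 to 0.943. A list of 4 genes, chosen to mark the embryonic kidney line that produces lentivirus, summed to 456 to 893 on the 5 transduced arrays and to 105 and 75.2 on the controls, with 3 of the 4 reaching 100. INA read 270 to 545 on the transduced arrays against 12.8 and 5.20 in controls, NEFL 49.4 to 264 against 29.7 and 34.4, and NEFM 36.7 to 123 against 29.7 and 16.2. LIN28B was not raised, at 2.78 to 27.7 against 32.5 and 19.4. Of the 2 leukocyte markers CD14 read 198 to 575 on the transduced arrays and 87.2 and 55.3 on the controls, while PTPRC, which defines leukocytes, read at most 55.5. Where these signals came from was not tested, nor was the part of these differences in the results below. The 2 controls differed over 2-fold in 1 of the 31 genes, MVD (3.23%), against 9.28% of all genes.

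Of the 31 genes, 16 (51.6%) had their highest signal on the array labelled prelamin A, against 17.2% of all genes tested. The 16 included 4 of 8 genes of farnesyl diphosphate supply, 6 of 9 genes of squalene and sterol synthesis, 3 of 4 transport genes, 2 of 4 fatty acid genes and 1 of 5 regulators. Control 2 was lowest for 9 genes (29%) against 20.2% of all genes.

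**Figure D1:**
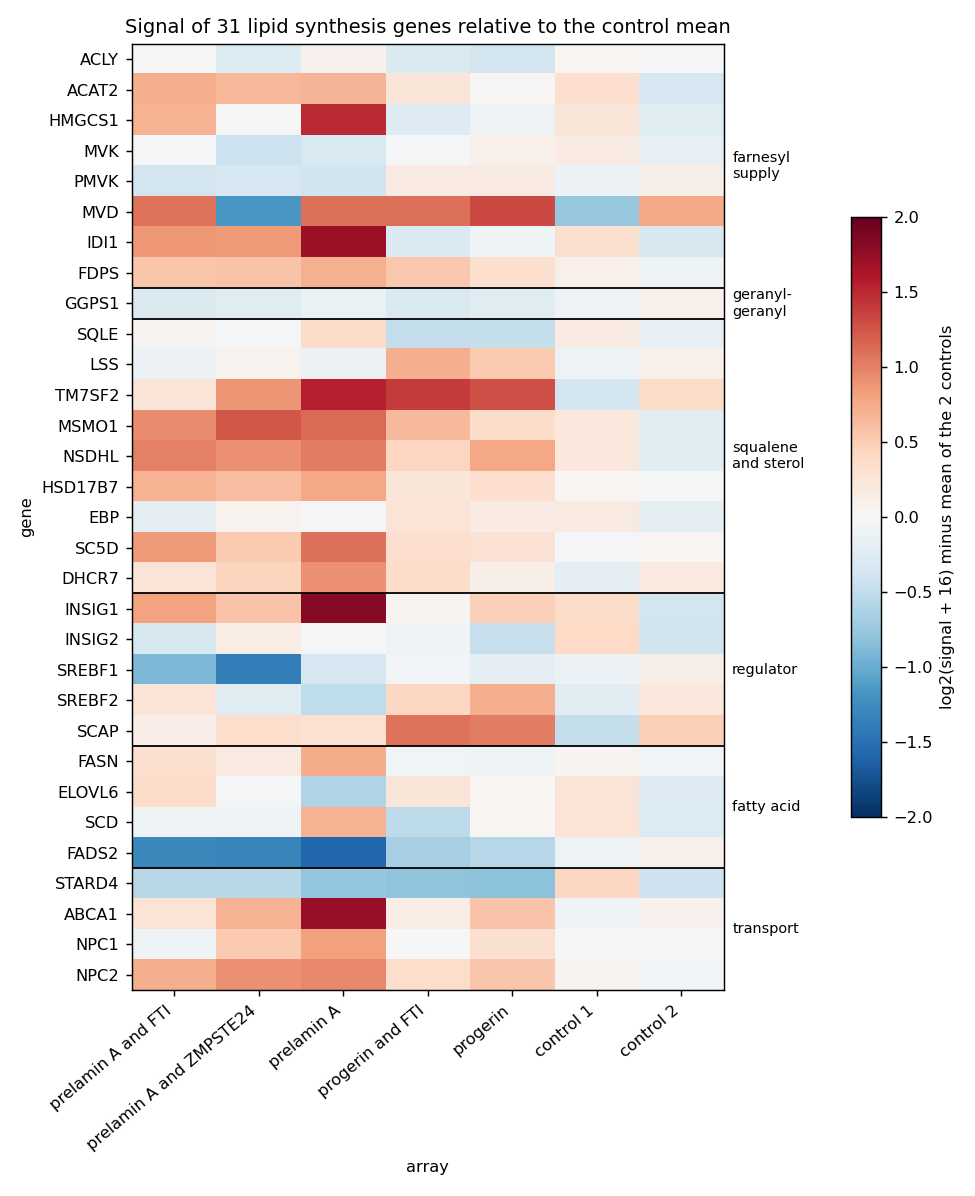
Colour gives log2(signal + 16) of each of the 31 tested genes (rows, grouped by role) on each of the 7 arrays (columns) minus the mean of the 2 controls, with red above and blue below that mean and the scale ending at 2 and -2. The prelamin A column is the reddest, with HMGCS1, IDI1, TM7SF2, INSIG1 and ABCA1 at differences of 1.50 to 1.82.

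Against the controls, 8 of the 31 genes (25.8%) were called higher with prelamin A, against a background of 6.29% of all 12726 genes, and 1 (FADS2) was called lower, against 4.02%. The 31 genes had a median difference of 0.70, while all genes had a median of -0.02. By role, the median was 0.92 for the 9 sterol genes, 0.89 for the 4 transport genes, 0.70 for the 8 genes of farnesyl diphosphate supply, 0.05 for the 4 fatty acid genes and -0.04 for the 5 regulators. The smallest adjusted p of the 31 was 0.185, for ABCA1. The same limma model gave 10 of the 31 an unadjusted p under 0.05, against 1508 of all 12726 genes. The smallest adjusted p over all genes was 0.0968. Against control 1 alone the difference was 1.45 for INSIG1 and 1.84 for ABCA1, and against control 2 alone it was 2.19 for INSIG1 and 1.66 for ABCA1. Against control 1 alone MSMO1 and NSDHL differed by 0.91 and 0.83, under 2-fold.

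Among the steps that lead to farnesyl diphosphate, 2 of 8 genes were called higher with prelamin A. HMGCS1, the synthase that makes HMG-CoA, had a signal of 524 with prelamin A and FTI, 315 with prelamin A and ZMPSTE24, 927 with prelamin A, 263 with progerin and FTI, 296 with progerin, and 379 and 265 in controls. The array labelled prelamin A was the highest and its FTI-treated partner the next, while the other 5 lay between 263 and 379. The difference of prelamin A from control was 1.50 ± 0.38 (standard error, as below), a 2.83-fold rise (adjusted p = 0.262). A dimmer HMGCS1 probe set gave another order, with 315 on the array labelled prelamin A, 352 with progerin, and 65.0 and 235 in controls.

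IDI1, which interconverts the isoprenoid building blocks that FDPS joins, had a signal of 3007 with prelamin A and FTI, 2964 with prelamin A and ZMPSTE24, 5461 with prelamin A, 1347 with progerin and FTI, 1543 with progerin, and 2061 and 1308 in controls. All 3 arrays of the prelamin A line lay above both controls and both progerin arrays lay within the range of the controls. Prelamin A exceeded control by 1.72 ± 0.42, or 3.30-fold (adjusted p = 0.248). Of the other 3 probe sets of IDI1, 1 gave the same picture, with 4426 on the array labelled prelamin A against 1660 and 1278 in controls. The remaining pair were dimmer and pointed the other way, with 135 on the array labelled prelamin A against 212 and 248 in controls and 70.9 against 117 and 107, and with the mean over all probe sets the IDI1 difference was 0.51 and was not called.

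FDPS, which makes farnesyl diphosphate itself, read 3563 with prelamin A and 2325 and 2014 in controls, and all 5 transduced arrays (2700 to 3563) lay above both controls, but the difference of 0.72 stayed under 2-fold. MVD, which makes isopentenyl diphosphate, had a signal of 101 with prelamin A and FTI, 8.60 with prelamin A and ZMPSTE24, 103 with prelamin A, 102 with progerin and FTI, 121 with progerin, and 16.4 and 77.8 in controls. The array labelled prelamin A and ZMPSTE24 and control 1 were low and the other 5 arrays lay between 77.8 and 121, near the minimum signal. The remaining genes of this stretch were not called: ACAT2, which makes acetoacetyl-CoA, differed by 0.68, ACLY, which makes cytosolic acetyl-CoA, by 0.09, and the mevalonate kinases MVK and PMVK by -0.31 and -0.40. GGPS1, which extends farnesyl to geranylgeranyl diphosphate, differed by -0.13.

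In the sterol branch 4 of 9 genes were called higher with prelamin A. MSMO1, the oxidase that starts removal of the methyl groups of early sterols, had a signal of 5147 with prelamin A and FTI, 6306 with prelamin A and ZMPSTE24, 5859 with prelamin A, 4172 with progerin and FTI, 3429 with progerin, and 3105 and 2292 in controls. All 5 transduced arrays were above both controls, with the prelamin A line above the progerin line. The rise with prelamin A was 1.13 ± 0.37, or 2.19-fold (adjusted p = 0.353).

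NSDHL, the dehydrogenase that acts after MSMO1, had a signal of 731 with prelamin A and FTI, 683 with prelamin A and ZMPSTE24, 744 with prelamin A, 486 with progerin and FTI, 619 with progerin, and 413 and 305 in controls. It too was above both controls on all 5 transduced arrays. Its rise of 1.03 ± 0.36 (adjusted p = 0.390) lay just over 2-fold and fell under it with a pseudocount of 64 or with the mean over probe sets.

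SC5D, a desaturase of late sterols, had a signal of 2931 with prelamin A and FTI, 2332 with prelamin A and ZMPSTE24, 3475 with prelamin A, 2043 with progerin and FTI, 1982 with progerin, and 1572 and 1667 in controls. The order was the prelamin A line above the progerin line above the controls, and prelamin A exceeded control by 1.09 ± 0.32, or 2.14-fold (adjusted p = 0.314). With the mean over probe sets the SC5D difference was 0.97 and was not called. TM7SF2, a sterol reductase of the step after CYP51A1, had a signal of 35.4 with prelamin A and FTI, 63.4 with prelamin A and ZMPSTE24, 110 with prelamin A, 97.0 with progerin and FTI, 88.8 with progerin, and 17.1 and 39.6 in controls. These values are dim, and only the array labelled prelamin A reached 100, so TM7SF2 entered the test through that array alone. Its difference with prelamin A was 1.55 ± 0.44 (adjusted p = 0.302), and with a pseudocount of 64 it was 0.92 and not called.

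The other 5 sterol genes were not called with prelamin A. DHCR7, the reductase of the last step to cholesterol, differed by 0.92, HSD17B7, a ketosteroid reductase, by 0.77, SQLE, the epoxidase of squalene, by 0.39, EBP, a sterol isomerase, by -0.04, and LSS, which closes the sterol rings, by -0.12. HSD17B7 read 731 with prelamin A against 432 and 409 in controls, and DHCR7 read 660 against 296 and 392. The probe sets of HSD17B7 and IDI1 are of a type that can match other sequences.

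Among the regulators, INSIG1, the sterol-dependent brake on SREBP, was the only gene called with prelamin A. Its signal was 2705 with prelamin A and FTI, 2292 with prelamin A and ZMPSTE24, 5487 with prelamin A, 1595 with progerin and FTI, 2160 with progerin, and 1994 and 1189 in controls. The array labelled prelamin A stood above the other 6, which spanned 1189 to 2705. The rise was 1.82 ± 0.44, or 3.54-fold (adjusted p = 0.248). Both other INSIG1 probe sets were also highest on the array labelled prelamin A, at 2821 against 933 and 807 in controls and at 879 against 325 and 243.

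The genes of the SREBP machinery itself gave no call against control. SREBF1, which encodes the SREBP of fatty acid synthesis, differed by -0.34, SREBF2, which encodes the SREBP of cholesterol synthesis, by -0.50, SCAP by 0.30 and INSIG2, the other INSIG, by -0.04 with prelamin A.

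Of the 4 fatty acid genes tested, 1 was called lower with prelamin A and 0 were called higher. FADS2, a desaturase of polyunsaturated fatty acids, had a signal of 162 with prelamin A and FTI, 156 with prelamin A and ZMPSTE24, 130 with prelamin A, 257 with progerin and FTI, 276 with progerin, and 387 and 446 in controls. All 5 transduced arrays lay below both controls, the prelamin A line lowest. FADS2 fell by 1.57 ± 0.33, or 2.96-fold (adjusted p = 0.211). Its other probe set was dimmer, at 105 with prelamin A against 80.4 and 77.8 in controls, and the mean of both gave -0.61, which was not called. FASN, the fatty acid synthase, differed by 0.75, SCD, which makes monounsaturated fatty acids, by 0.70, and ELOVL6, an elongase, by -0.60.

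ABCA1, which hands cholesterol to apolipoprotein A-I, had the smallest p of the 31 genes. Its signal was 821 with prelamin A and FTI, 1109 with prelamin A and ZMPSTE24, 2309 with prelamin A, 748 with progerin and FTI, 1012 with progerin, and 634 and 722 in controls. All 5 transduced arrays lay above both controls, the array labelled prelamin A was the highest, and FTI-treated cells came closest to them. The rise with prelamin A was 1.75 ± 0.33, or 3.36-fold (adjusted p = 0.185). On the next brightest ABCA1 probe set the array labelled prelamin A read 1155, the array labelled prelamin A and ZMPSTE24 1262 and the progerin array 1236, against 649 and 700 in controls.

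NPC1 and NPC2 together pass cholesterol out of late endosomes and lysosomes. NPC2 read 10262 with prelamin A against 5455 and 5111 in controls, and its difference of 0.96 was under 2-fold. NPC1 read 2529 with prelamin A against 1412 and 1429, a difference of 0.82. STARD4, which carries cholesterol between membranes, read 643 with prelamin A against 1493 and 831 in controls, a difference of -0.78, and all 5 transduced arrays (626 to 752) lay below both controls.

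**Figure D2:**
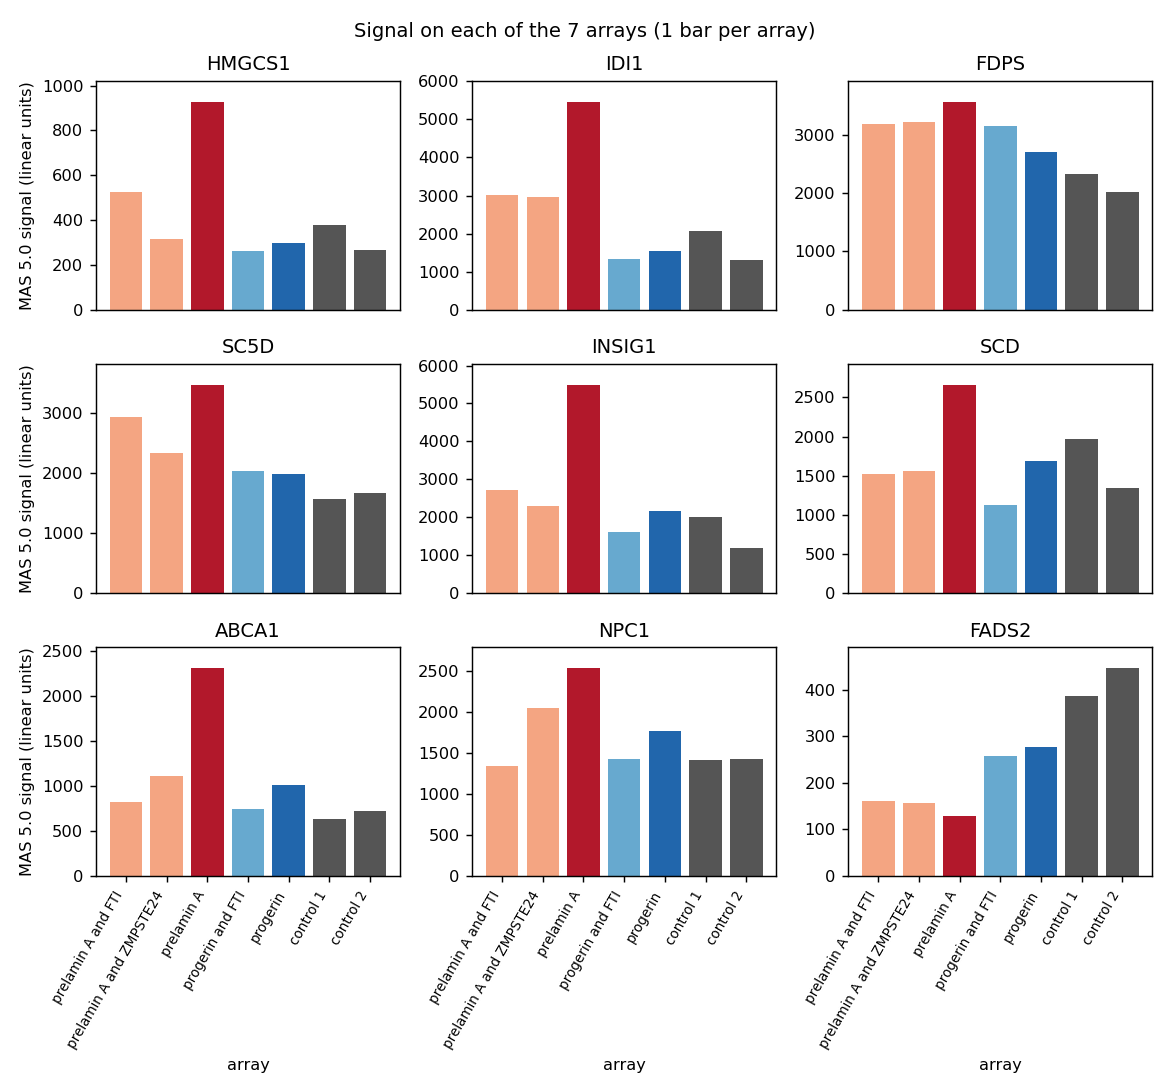
Bars give the linear MAS 5.0 signal of 9 genes on each of the 7 arrays, 1 bar per array and with no error bar because each bar is a single array, in red for prelamin A, orange for its treated arrays, dark blue for progerin, light blue for progerin and FTI and grey for the controls. HMGCS1, IDI1, INSIG1 and ABCA1 peak on the array labelled prelamin A at 927, 5461, 5487 and 2309, while FADS2 is lowest there at 130.

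With progerin, 1 of the 31 genes was called higher against the controls, against 3.76% of all genes, and 0 were called lower, against 2.04%. Limma gave 1 an unadjusted p under 0.05, against 860 of all 12726 genes. The called gene was TM7SF2, at 1.29 ± 0.44 (adjusted p = 0.683), a dim gene whose call was lost under 6 of 8 alternatives. The median over the 31 genes was 0.16, against 0.01 for all genes. HMGCS1 and IDI1 both differed by -0.09 with progerin, INSIG1 by 0.48 and ABCA1 by 0.57. The larger uncalled differences were 1.32 for MVD, 1.02 for SCAP, 0.77 for NSDHL and 0.72 for SREBF2. SCAP read 1093 with progerin and 376 and 742 in controls, and STARD4 read 626 with progerin against 1493 and 831, a difference of -0.82. The progerin and prelamin A comparisons share their controls.

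**Figure D3:**
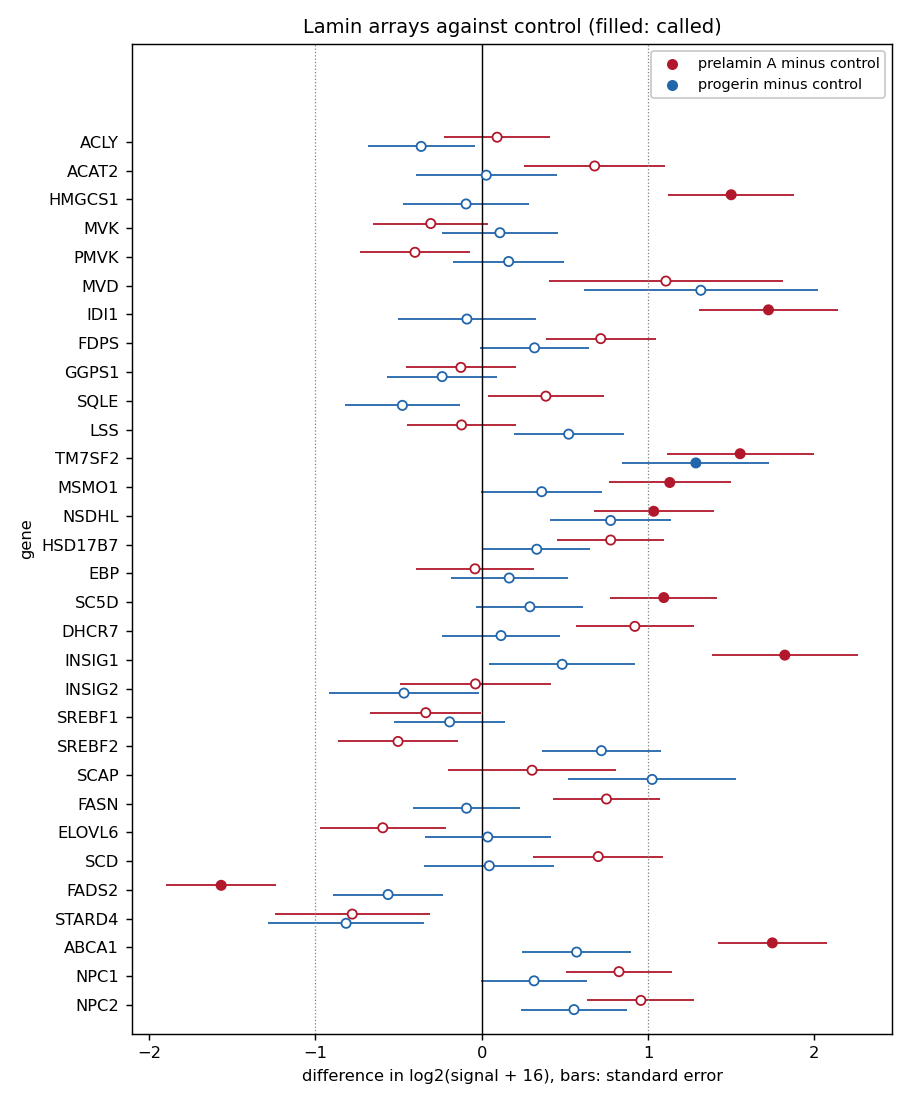
Points give the difference of the array labelled prelamin A (red) and the progerin array (blue) from the mean of the 2 controls in log2(signal + 16) for 31 genes, bars are standard errors of the limma model, filled points are called and dotted lines mark 2-fold. Filled red points are 8 genes to the right and FADS2 to the left at -1.57, and the only filled blue point is TM7SF2 at 1.29.

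The lines were also compared with each other, without the controls in the difference. Prelamin A was called higher than progerin in 3 of the 31 genes, against 3.59% of all genes, and lower in 1, against 3.46%. HMGCS1 was higher by 1.59 ± 0.44 (3.02-fold, adjusted p = 0.647), IDI1 by 1.81 ± 0.48 (3.51-fold, adjusted p = 0.638) and ABCA1 by 1.18 ± 0.38 (2.26-fold, adjusted p = 0.655). INSIG1 was higher by 1.34 and was not called. SREBF2 was lower, with a difference of -1.22 ± 0.42 (2.33-fold, adjusted p = 0.671).

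SREBF2 had a signal of 416 with prelamin A and FTI, 289 with prelamin A and ZMPSTE24, 237 with prelamin A, 460 with progerin and FTI, 574 with progerin, and 295 and 396 in controls. The array labelled prelamin A was below and the progerin array above both controls. A probe set of SREBF2 of like brightness read 384 with prelamin A and 431 with progerin, and the mean over its probe sets differed by -0.21 between the lines. INSIG1 was higher with prelamin A than with progerin on all 3 of its probe sets, while with the mean over probe sets HMGCS1, IDI1 and ABCA1 differed by 0.72, 0.81 and 0.54 and were no longer called.

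With FTI in prelamin A cells 1 of the 31 genes was called lower, against 1.62% of all genes, and 0 were called higher, against 1.19%. The gene was ABCA1, with a signal of 821 with FTI and 2309 without, a difference of -1.47 ± 0.38 (2.78-fold, adjusted p = 1.00). The median over the 31 genes was -0.17, against -0.01 for all genes, and 23 of 31 values were below 0, against 6584 of 12726. The larger uncalled differences were -1.29 for TM7SF2, -1.02 for INSIG1, -0.90 for NPC1, -0.86 for IDI1, -0.81 for HMGCS1 and -0.80 for SCD, and upward 0.96 for ELOVL6 and 0.77 for SREBF2. Of the sterol genes called with prelamin A, 3 had smaller differences with FTI, of -0.19 for MSMO1, -0.02 for NSDHL and -0.24 for SC5D, and FDPS differed by -0.16.

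On the array labelled prelamin A and ZMPSTE24, whose ZMPSTE24 signal was no higher than with prelamin A alone, 4 of the 31 genes were called lower than with prelamin A alone, against 2.85% of all genes, and 0 were called higher, against 2.18%. HMGCS1 fell by 1.51 ± 0.44 (2.85-fold, adjusted p = 0.821) to 315, against 927 with prelamin A alone, and ABCA1 fell by 1.05 ± 0.38 (2.07-fold, adjusted p = 0.947) to 1109, against 2309. The other bright ABCA1 probe set read 1262 against 1155, and with the mean over probe sets the difference was -0.46 and not called. The HMGCS1 call was also lost with the mean over probe sets. MVD read 8.60, far below the minimum signal, against 103 with prelamin A alone, so that the size of its difference follows the pseudocount, at -1.20 with 64 and -3.44 with 1, and its call was lost under 4 of 8 alternatives. SREBF1 had a signal of 200 with prelamin A and FTI, 140 with prelamin A and ZMPSTE24, 304 with prelamin A, 372 with progerin and FTI, 338 with progerin, and 358 and 422 in controls. It was lowest on the array labelled prelamin A and ZMPSTE24, by -1.04 ± 0.38 against prelamin A alone (adjusted p = 0.964), and its call was lost under 5 of 9 alternatives. INSIG1 differed by -1.25 and IDI1 by -0.88, and the median of the 31 genes was -0.15, against -0.02 for all genes.

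Both treatments of the prelamin A line are compared with the same array labelled prelamin A, so that a high reading on that array lowers both differences at once, and the same array enters the contrast with control. The separate FTI comparison does not use it: in progerin cells 0 of the 31 genes were called with FTI in either direction, against 1.45% of all genes, and limma gave 0 of them an unadjusted p under 0.05. The differences there lay between -0.57, for SCD, and 0.38, for INSIG2, with a median of -0.00, and ABCA1 and INSIG1 both differed by -0.43. The interaction, the FTI difference in prelamin A cells minus that in progerin cells, was called in 0 of the 31 genes at either threshold, against 1.84% of all genes, with -1.05 for ABCA1, -1.40 for TM7SF2 and 1.08 for SREBF2.

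**Figure D4:**
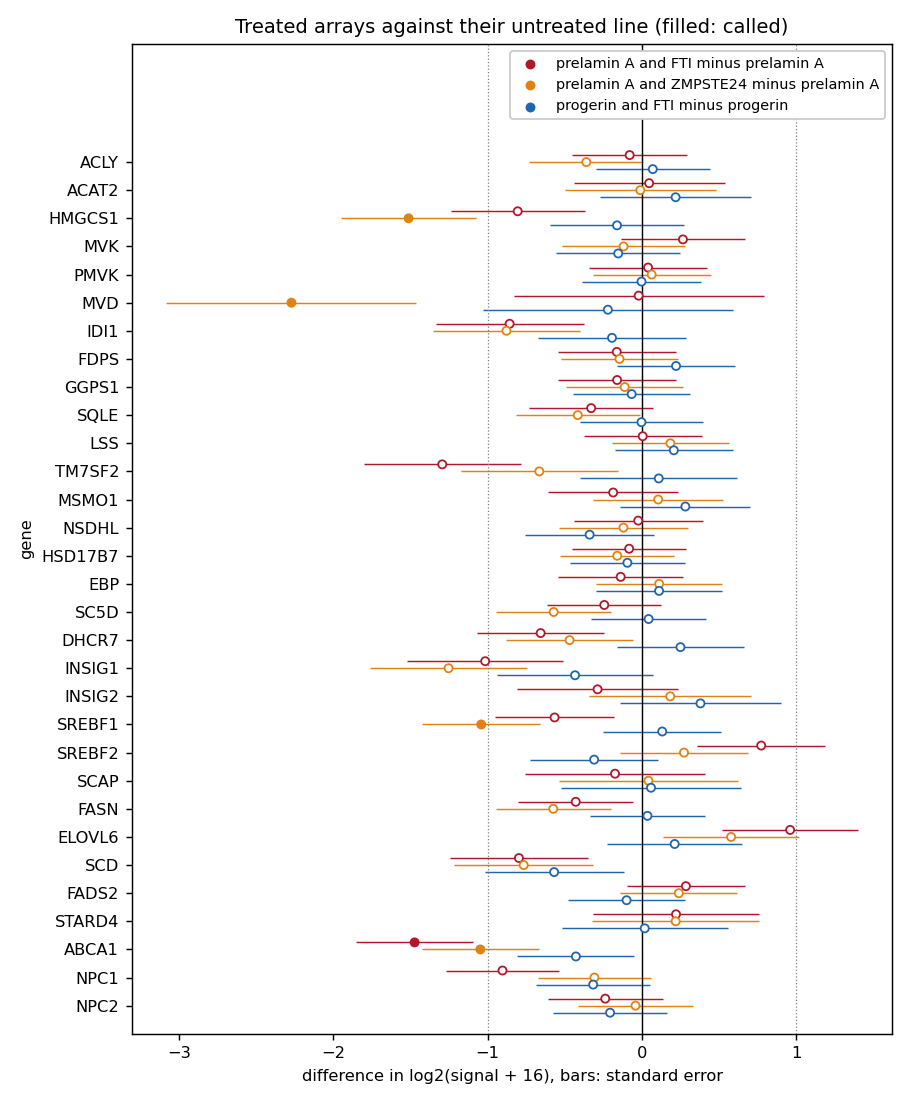
Points give the difference of each treated array from the untreated array of its line in log2(signal + 16) for 31 genes, with prelamin A and FTI in red, prelamin A and ZMPSTE24 in orange and progerin and FTI in blue, bars are standard errors of the limma model, filled points are called and dotted lines mark 2-fold. The filled points are ABCA1 for FTI at -1.47, and HMGCS1, MVD, SREBF1 and ABCA1 for ZMPSTE24 at -1.51, -2.27, -1.04 and -1.05, where MVD is dim and its size depends on the pseudocount.

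With FTI fitted as 1 effect over both lines and line as a term, 0 of the 31 genes and 0% of all genes passed an adjusted p of 0.05 in limma. At an unadjusted p under 0.05 there were 3 of the 31 and 354 of 12726. The fitted differences of these 3 were -0.95 ± 0.30 for ABCA1, -0.68 ± 0.25 for SCD and -0.61 ± 0.22 for NPC1. SCD read 1523 with FTI and 2659 without in the prelamin A line, and 1129 with FTI and 1683 without in the progerin line. NPC1 read 1344 with FTI and 2529 without in the prelamin A line, and 1419 with FTI and 1770 without in the progerin line. Each of the 3 had a lower signal with FTI than without in both lines. Picking genes by 1 effect fitted over both lines favours such a shared direction, so it is not a further test.

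With the prelamin A and progerin arrays combined against the controls, in a limma model of 3 states that pools the spread of the lamin, treated and control arrays, 0 of the 31 genes passed an adjusted p of 0.05, against 0.558% of all genes. At an unadjusted p under 0.05 there were 7 of the 31 and 1437 of 12726. TM7SF2 differed by 1.42, ABCA1 by 1.16, NSDHL by 0.90, NPC2 by 0.76 and FDPS by 0.52, and FADS2 and STARD4 differed by -1.07 and -0.80. HMGCS1, IDI1, MSMO1, SC5D and INSIG1, which were called with prelamin A against control, were not among these 7.

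A further 70 genes of lipid metabolism, listed by their known function, gave 57 that could be tested. With prelamin A 7 were called higher (12.3%, against 6.29% of all genes) and 3 lower (5.26%, against 4.02%). With progerin 2 were called higher (3.51%, against 3.76%) and 2 lower (3.51%, against 2.04%), prelamin A exceeded progerin in 1 (1.75%, against 3.59%), and no gene was called with FTI in either line or with ZMPSTE24. The largest differences were in oxysterol and lipoprotein genes. CH25H, which makes an oxysterol that holds SREBP in check, had a signal of 141 with prelamin A, 202 with progerin, and 1277 and 3875 in controls, and all 5 transduced arrays (131 to 217) lay far below both controls. It fell by 3.84 ± 0.72 with prelamin A and by 3.36 ± 0.72 with progerin on the log2 scale, with adjusted p-values of 0.185 and 0.439. CYP7B1, which hydroxylates oxysterols, read 136 with prelamin A, 49.3 with progerin, and 2.11 and 25.1 in controls. It was called with prelamin A (adjusted p = 0.244), but with controls this dim the size of the difference is not settled, at 1.38 to 3.92 over the alternatives, and the call was lost with a pseudocount of 1. VLDLR, a lipoprotein receptor, read 369 with prelamin A, 766 with progerin, and 1081 and 2187 in controls, and differed by -2.02 ± 0.52 with prelamin A (adjusted p = 0.269).

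With progerin the other 3 called genes of that list were TMEM97, a sterol-responsive membrane protein, ACSS2, which makes acetyl-CoA from acetate, and FNTB, the β subunit of farnesyltransferase, which was named after its values were seen. TMEM97 had a signal of 1201 with progerin, 1618 with prelamin A, and 495 and 478 in controls, and ACSS2 had a signal of 600 with progerin, 444 with prelamin A, and 319 and 201 in controls. FNTB was dim, at 46.6 with progerin and 51.5 with prelamin A, and 147 and 104 in controls, through which alone it passed the minimum. Their differences with progerin were 1.27, 1.19 and -1.16, and those of TMEM97 and FNTB with prelamin A, also called, were 1.70 and -1.05. With progerin the call was lost under 2 of 9 alternatives for TMEM97, 3 of 9 for ACSS2 and 3 of 8 for FNTB. ME1, which supplies NADPH for fatty acid synthesis, read 4237 with prelamin A, 1984 with progerin, and 1577 and 1806 in controls, and was the gene called higher in prelamin A than in progerin, by 1.09 ± 0.38 (adjusted p = 0.681).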

How the data were processed

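Total RNA of 7 samples was hybridised to Affymetrix genome-wide arrays. The authors deposited 1 table of intensity values, the MAS 5.0 signal per probe set on a linear scale, each array scaled so that its mean after trimming 2% at each end was about 500; no version of MAS 5.0 is given in the sources used here. Probe-level values and detection calls were not used here, so the study's own S-score test was not run.

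Of 54675 probe sets, 62 were array controls, 41091 named 1 gene in the platform annotation, 1801 several and 11721 none; 41037 were matched by gene ID to RefSeq, GRCh38.p14. A gene was kept where any array reached a signal of 100, and its probe set with the highest mean stood for it. log2(signal + 16) was fitted with limma 3.58.1 in R 4.3.3 with 6 conditions (1 residual and 3.50 prior degrees of freedom), with FTI and line as terms (2 residual) or with 3 states (4 residual). Adjusted p-values are Benjamini-Hochberg over all 12726 genes. Genes were called at a fold over 2 and p under 0.05, or at an adjusted p under 0.05 in the other 2 models. The fit was tested on simulated data. Precision is limited by the number of arrays.

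The members and gene lists were chosen with earlier results of these data known. Named with values on every array were members called in at least 1 comparison of the 6-condition model and, of the other pathway genes, at most the 3 largest called in each comparison. Alternatives were another normalization (quantile, or centring on the median), a pseudocount of 1 or 64, no filter, a mean signal of at least 100, the mean over probe sets, an intensity trend, a stricter threshold and leaving out each control. Promoter sequences came from RefSeq, GRCh38.p14.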

Additional observations from a re-analysis of the deposited data

Results flagged for a closer look

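In 4 genes the array labelled prelamin A and the progerin array differed by a test of that difference itself, with more than a 2-fold difference and p under 0.05 in limma before adjustment, although none passed adjustment over all genes (adjusted p of 0.638 to 0.671). The difference of prelamin A from progerin in log2(signal + 16) was 1.81 for IDI1, 1.59 for HMGCS1, 1.18 for ABCA1 and -1.22 for SREBF2. For IDI1, a further bright probe set read 4426 with prelamin A and 1344 with progerin, while for HMGCS1, ABCA1 and SREBF2 the next probe set read 315, 1155 and 384 with prelamin A against 352, 1236 and 431 with progerin. Each line is a single array named by its label, and the LMNA signal on its brightest probe sets did not bear out the prelamin A label.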

How the results depend on the processing

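Of 19 calls of single genes in the 6-condition model, 1, ABCA1 with prelamin A against control, was kept under every alternative tested, and 18 were lost under at least 1, most often at p under 0.01. Over these calls and their alternatives, 122 of 168 values kept the call and 46 lost it. For prelamin A against control, 9 genes were called and 2 at p under 0.01, ABCA1 and FADS2. For progerin against control, the 1 call became 0 with quantile normalization, a pseudocount of 1 or of 64, no filter, a mean signal of at least 100, an intensity trend or p under 0.01, and 2 with the mean over probe sets. For FTI in prelamin A cells, the 1 call became 2 with the mean over probe sets or an intensity trend and 0 at p under 0.01. For ZMPSTE24 the 4 calls became 1 with no filter, with 641 of all genes called in the main setting and 1176 without a filter, and 0 at p under 0.01. For prelamin A against progerin the 4 calls became 1 with the mean over probe sets and 0 at p under 0.01. FADS2 with ZMPSTE24 was 0.24 and reversed to -1.22 with the mean over probe sets. The cause of these changes was not tested. Leaving out a control leaves no residual degree of freedom, so only folds over 2 could be counted, without a test. Progerin against control then gave 0 genes without control 1 and 4 without control 2, against 10.1% and 10.7% of all genes. Whichever control was left out, FTI in prelamin A cells gave 3 genes, against 5.23% of all genes. The interaction likewise gave 3, against 7.97% of all genes, while 0 were called in the main setting. No other result of the 31 genes turned its sign past the threshold.

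Over all genes, dropping the filter gave 1238 calls against 738 for progerin, 913 against 358 for FTI in prelamin A cells, 600 against 185 for FTI in progerin cells and 1379 against 897 for prelamin A against progerin. The intensity trend gave 186 and 53 for the FTI comparisons. In the model of 3 states the 71 genes became 0 without the array labelled prelamin A. It became 16 to 34 without any of the other 4 transduced arrays, 39 without control 1 and 9 without control 2. No paired analysis was possible because the labels number only the controls, so that groups share no replicate number, although the model with line as a term sets each FTI array against its own line. Limits are 1 array per condition, the choice of probe set, and dim signals, as for TM7SF2 and MVD.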
